A study of Mus musculus with 8 samples.

Results

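The interferon-stimulated antiviral genes described here are 42 named genes whose products sense viral RNA, block virus replication or regulate that defence. They were chosen by name, as genes known to be induced by type I interferon, with earlier results of these data known. They were found by Ensembl identifier through the gene symbols of GENCODE vM21. Each of the 42 matched 1 of the 52636 identifiers in the count table, and each had enough counts to be tested. The RNA came from primary microglia of wild-type (WT) mice, given as C57BL/6 in the labels (the pups named in the study's methods are C57BL/6N), and the cells had been shaken off mixed glial cultures of neonatal brains. The cells of both groups were kept in DMEM with fetal bovine serum and recombinant murine CSF-1, a growth factor that microglia need in culture. They then received LPS, a bacterial lipopolysaccharide, at 5 µg/ml for 24 h, or vehicle for the same time, with 4 libraries in each group that the labels call biological replicates. The labels do not say whether replicates came from separate litters or flasks, so a p-value measures the spread between these libraries. Cultured neonatal microglia that have been detached by shaking are a model of microglia in the brain and can differ from them at rest.

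LPS is sensed by Tlr4, which signals through a pair of adaptor branches, and the branch that uses Ticam1 leads to the kinase Tbk1, to Irf3 and to transcription of interferon beta. Secreted interferon binds the receptor chains Ifnar1 and Ifnar2, whose kinases Jak1 and Tyk2 activate transcription factors in the cytoplasm. The complex ISGF3, of which Stat2 and Irf9 are parts, then enters the nucleus and binds a DNA element called the interferon-stimulated response element (ISRE). Genes with such elements include those for the RNA sensors, the IFIT and OAS proteins, viperin, ISG15 and the Mx GTPases. In microglia this programme is known from viral infection, from ageing and from mouse models of neurodegeneration.

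The 8 libraries held between 20071921 and 30604447 counts. LPS replicate 3 was the deepest, and its trimmed mean of M values (TMM) scaling factor was the lowest. In each group replicate 3 held the highest values of most members, and the main counts are also given without it. Levels are given as CPM, the counts of a gene relative to the library size after TMM scaling, with replicates 1 to 4 in that order. The 10 microglial markers summed to 10568 to 12787 CPM in vehicle and to 3327 to 3581 CPM in LPS, and 8 of the 10 were called lower. Itgam was called higher, at 201 to 330 CPM in vehicle and 871 to 1062 CPM in LPS. Aif1 did not pass the test, at 95.7 to 187 and 96.3 to 151 CPM. In bulk RNA, fewer cells of a type and less RNA per cell cannot be told apart. Markers of other cell types were also counted. The 8 astrocyte markers summed to 20.01 to 46.9 CPM in vehicle and 41.0 to 123 in LPS, where 1 was higher (Gja1, from 0.639 to 1.07 CPM to 28.9 to 98.1 CPM) and 3 were lower (Gfap, Aqp4 and Aldh1l1). The 6 oligodendrocyte markers summed to 150 to 205 CPM and 188 to 237 CPM, with Cnp higher, Mbp lower and Mobp at no more than 3 counts in any library. The oligodendrocyte precursor list summed to 14.8 to 50.7 and 0.466 to 7.24 CPM, and the neuron list to 6.47 to 19.0 and 2.43 to 9.34 CPM, with 3 markers lower and 0 higher in each. The endothelial list of 5 genes summed to 31.05 to 73.5 CPM in vehicle and to 163 to 254 in LPS. Its genes Cldn5 and Tek had no more than 3 counts in any library, and the other 3 were called higher. Pecam1 stood at 1.03 to 5.43 CPM in vehicle and 31.7 to 68.7 CPM in LPS. Cdh5 stood at 0.595 to 1.28 and 6.34 to 8.77 CPM, and Flt1 at 25.0 to 71.8 and 86.3 to 197 CPM. The 4 markers of plasmacytoid dendritic cells, which include the member Bst2, summed to 397 to 669 CPM and 1291 to 1577 CPM. Of these, Siglech and Ly6d had no more than 3 counts in any library, Tcf4 stood at 159 to 186 CPM in vehicle and 192 to 246 CPM in LPS and did not pass the test, and Bst2 was higher. The part of these cell types in the member levels was not tested.

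The promoters of the members are given first, because the ISRE is the element through which genes of this kind are known to respond. RefSeq windows (GRCm38.p6) from 250 bases before to 50 bases after a gene's start site were at hand for 32 of the 42 members. An ISRE-type match was defined as GAAANNGAAA on either strand, which reads TTTCNNTTTC when it lies on the other strand. At least 1 such match was found in 16 of the 32 members (50.0%), against 1079 of 27025 genes with a window (3.99%) and 1131 of all 32851 windows (3.44%). Among genes that were higher after LPS the share was 5.95% of 3043, among those lower it was 2.84% of 3453, and among those not called it was 3.69% of 3335. Among genes higher by a log2 fold change of at least 1 it was 8.79% of 1559. The members were chosen as genes known to be induced by interferon, so their share is a description and no test. Ifit3 and Ifit3b, and Oas1a and Oas1g, are near copies and count separately. With a C required after the match, as in the classical element, 14 of the 32 members (43.8%) and 0.944% of all genes with a window kept one. A match is a run of letters in a window and does not show that a factor bound there.

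A stretch from each of several roles is shown because it carries the match, written in capitals, and is read 5′ to 3′ on the strand of the gene. The stretches span chr4:156200861-156200910 on the minus strand for Isg15, chr19:34640765-34640814 on the plus strand for Ifit1, chr19:34583353-34583402 on the plus strand for Ifit3 and chr19:34607749-34607798 on the plus strand for Ifit3b. The stretches of Oas1a (chr5:120907516-120907565, minus strand) and Oas1g (chr5:120887602-120887651, minus strand) were identical to each other, as were those of Ifit3 and Ifit3b. The others are Oas3 (chr5:120777705-120777754, minus), Rsad2 (chr12:26456543-26456592, minus), Bst2 (chr8:71537573-71537622, minus), Ddx60 (chr8:61928048-61928097, plus) and Phf11b (chr14:59341351-59341400, minus).
Isg15: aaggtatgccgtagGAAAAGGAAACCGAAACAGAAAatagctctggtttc
Ifit1: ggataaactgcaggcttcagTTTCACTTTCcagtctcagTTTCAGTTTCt
Ifit3 and Ifit3b: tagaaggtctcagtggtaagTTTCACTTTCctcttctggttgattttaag
Oas1a and Oas1g: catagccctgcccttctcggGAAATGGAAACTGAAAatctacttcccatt
Oas3: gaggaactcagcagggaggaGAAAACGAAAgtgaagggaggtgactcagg
Rsad2: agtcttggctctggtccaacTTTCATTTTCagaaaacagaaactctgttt
Bst2: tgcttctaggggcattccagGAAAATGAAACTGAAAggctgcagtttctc
Ddx60: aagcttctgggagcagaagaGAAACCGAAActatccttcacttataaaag
Phf11b: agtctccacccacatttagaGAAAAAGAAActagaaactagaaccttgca

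In Isg15 the capitals are 3 overlapping matches that share their GAAA runs, and in Ifit1 they are a pair of matches on the other strand. Matches lay at different distances from the start site: the first base of the match was at -188 and -154 in Ifit3b, at -156 and -122 in Ifit3, at -120 in Rsad2 and at -20 and -14 in Oas1a. In Ifih1, Ddx58, Eif2ak2 and Ifitm3 the matches lay only after the start site. Restricting the search to the bases before the start left 12 of 32 members (37.5%), against 3.46% of all genes with a window. A match was present in 4 of 9 members with a log2 fold change of 3 or more and in 12 of 23 members below it. Cmpk2 and Oasl1, the members with the second and the third largest changes, had no match in their windows. The 250 bases before their start sites are chr12:26468965-26469214 and chr5:114922990-114923239, both on the plus strand, printed to show stretches of members without the match.
Cmpk2: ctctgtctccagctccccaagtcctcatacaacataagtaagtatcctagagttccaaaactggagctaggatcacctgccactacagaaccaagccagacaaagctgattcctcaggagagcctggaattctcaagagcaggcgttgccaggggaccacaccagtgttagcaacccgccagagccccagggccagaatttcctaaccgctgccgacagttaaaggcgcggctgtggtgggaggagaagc
Oasl1: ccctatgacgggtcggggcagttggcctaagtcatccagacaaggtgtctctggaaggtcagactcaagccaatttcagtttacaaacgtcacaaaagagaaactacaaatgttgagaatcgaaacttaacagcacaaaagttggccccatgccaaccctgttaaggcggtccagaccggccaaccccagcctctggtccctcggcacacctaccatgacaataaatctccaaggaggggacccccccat

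**Figure D1:**
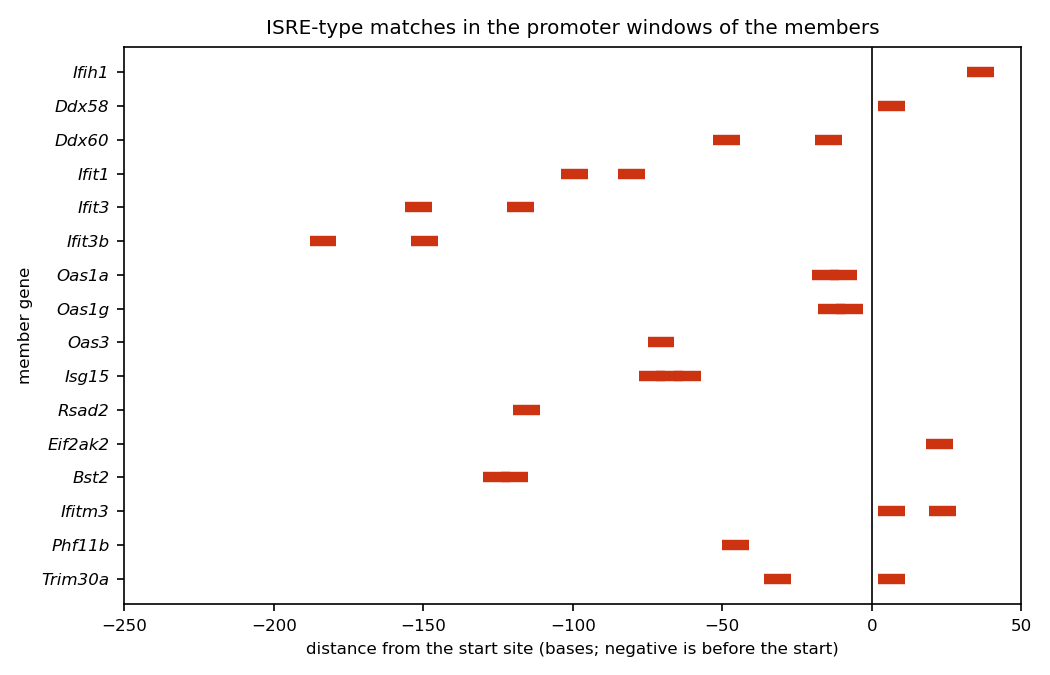
Position of ISRE-type matches (red bars, each 1 match) in the promoter windows of the 16 members that had one, in bases from the start site. Most matches lie before the start, whereas those of Ifih1, Ddx58, Eif2ak2 and Ifitm3 lie after it.

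After LPS, 41 of the 42 members were higher at an adjusted p under 0.05 (edgeR quasi-likelihood test, Benjamini-Hochberg adjustment over 13847 genes), against 30.3% of all tested genes. None was lower by that test, by its unadjusted p at 0.05 (0 members) or by DESeq2 (0 members), against 33.8% of all tested genes that edgeR called lower. Their median log2 fold change was 2.10, and that of all tested genes was -0.11. In 40 members all 4 LPS libraries lay above all 4 vehicle libraries, as they did in 28.7% of tested genes. The same number, 40, rose by a log2 fold change of at least 1, against 16.1% of tested genes. The 2 exceptions in both counts were Oasl2 and Ifi27l2a. Scaling by library totals alone, without TMM, moved the median of all genes to -0.79 and the split of all calls from 4191 higher and 4686 lower to 1988 higher and 8457 lower. Under that scaling 40 members were higher, 0 were lower and their median was 1.41.

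**Figure D2:**
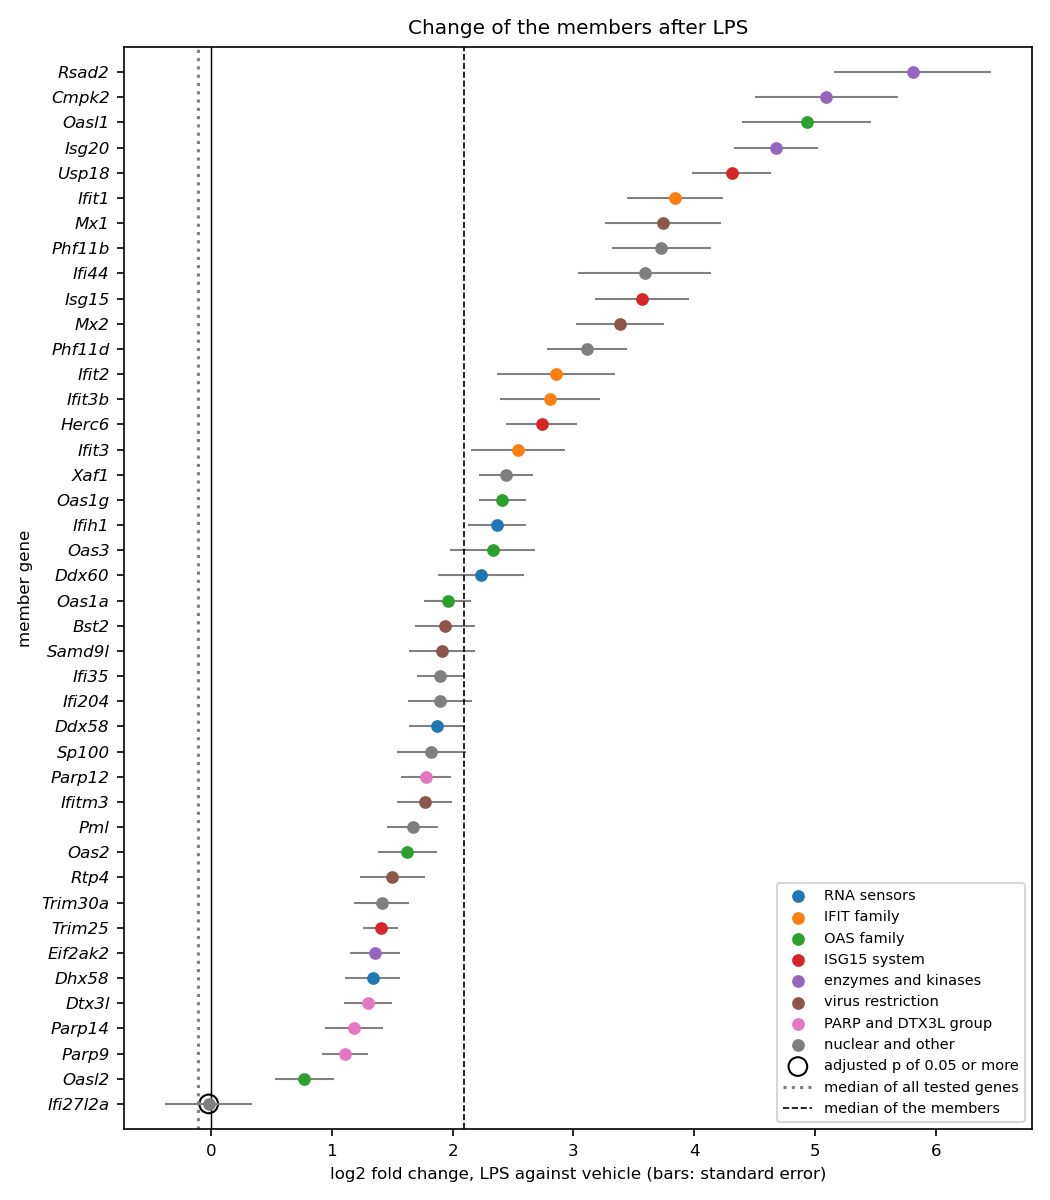
Log2 fold change of each of the 42 members (LPS against vehicle, bars show the standard error), coloured by role, with the medians of the members (dashed) and of all tested genes (dotted). Rsad2 has the largest change at 5.81, and Ifi27l2a, ringed, sits at -0.02.

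Changes within the group spanned from -0.02 to 5.81 on the log2 scale. By rank among all tested genes, none of the members was among the 100 largest rises and 11 were among the 500 largest. By role, the median was highest for the enzymes that act on viral RNA, nucleotides or translation (4.88), followed by the ISG15 system (3.15), the IFIT family (2.83), the OAS family (2.15), the RNA sensors (2.05), the membrane and cytoplasmic restriction factors (1.92), the nuclear and other members (1.90) and the PARP and DTX3L group (1.24). As a share of all raw counts, the members took 0.683 to 1.43% of a vehicle library and 3.18 to 6.34% of an LPS library. Per kilobase of exon, Ifitm3 (522 CPM per kb), Bst2 (356) and Ifi27l2a (311) had the highest mean levels in vehicle. In LPS they were Rsad2 (3589 CPM per kb), Isg15 (2333) and Ifitm3 (1781).

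**Figure D3:**
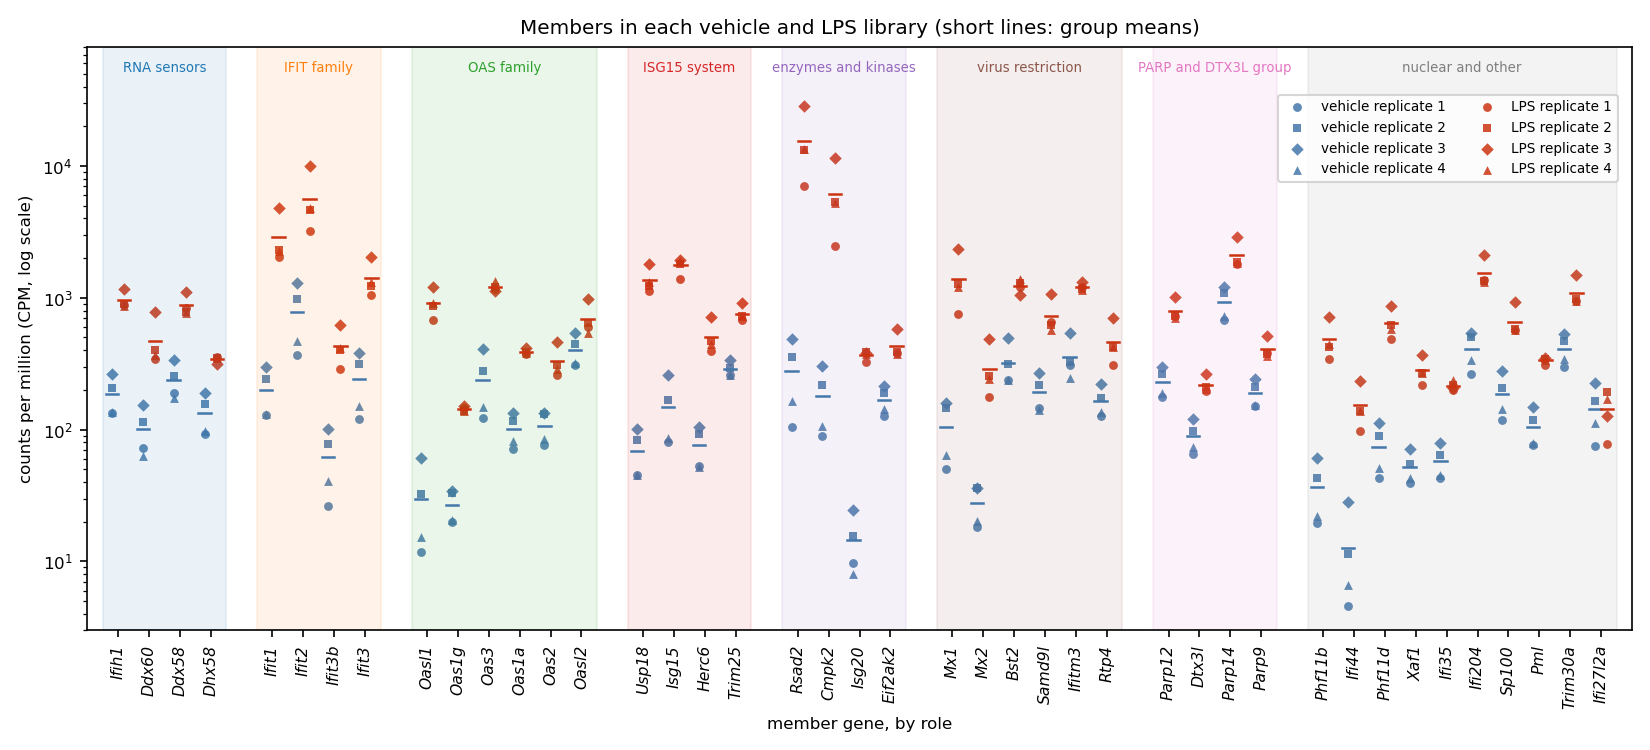
Level of each member in each library (CPM, log scale), in blue for vehicle and red for LPS, with marker shapes for replicates 1 to 4 and short lines for the group means. LPS libraries lie above vehicle libraries for 40 of the 42 members, and the groups overlap for Oasl2 and Ifi27l2a.

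Of the enzymes, Rsad2 changed most of all members. It encodes viperin, a radical SAM enzyme that makes a chain-terminating nucleotide analogue from CTP. Rsad2 (chr12:26442746-26456452, minus strand) stood at 105, 355, 488 and 164 CPM in the vehicle libraries and 7106, 13209.7, 28423 and 13488 CPM in the LPS libraries. The lowest LPS library was 14.6 times the highest vehicle library, and the group means were 278 ± 176 and 15557 ± 9069 CPM (SD, n = 4), with a log2 fold change of 5.81 (SE 0.65, adjusted p = 4.1e-05). In LPS replicate 3, Rsad2 alone took 1.99% of all counts, against 0.592 to 1.10% in the other LPS libraries and 0.0131 to 0.0589% in vehicle. Cmpk2 (chr12:26469204-26479837, plus strand), the neighbouring gene, encodes a nucleotide kinase of mitochondria that supplies CTP. Its levels were 89.0, 219.9, 302 and 107 CPM in the vehicle libraries and 2483, 5312, 11422 and 5287 CPM in the LPS libraries, with a log2 fold change of 5.09 (SE 0.59, adjusted p = 5.3e-05). Both genes ordered their libraries alike in vehicle, and in LPS replicate 1 both were lowest and in replicate 3 highest. Isg20, an exonuclease that degrades RNA, rose by a log2 fold change of 4.67 (SE 0.35, adjusted p = 3.4e-06), from 14.4 ± 7.43 to 369 ± 29.3 CPM (SD, n = 4), and its 4 LPS libraries lay closer together than those of Rsad2. Eif2ak2, the kinase PKR that stops translation when it binds double-stranded RNA, had the smallest change of these 4 at 1.36 (SE 0.21, adjusted p = 0.00033).

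All 4 IFIT genes rose. IFIT proteins bind viral RNA that lacks the methylation of host caps and block its translation. Their genes lie together on chromosome 19, and the levels of Ifit1 (chr19:34640871-34650009, plus strand) were 130.2, 244, 296 and 132 CPM in the vehicle libraries and 2056, 2312, 4843 and 2283 CPM in the LPS libraries, with a log2 fold change of 3.84 (SE 0.40, adjusted p = 2.7e-05). Ifit2 (chr19:34550694-34576419, plus strand) stood at 369, 979.6, 1306 and 469.7 CPM in the vehicle libraries and 3204, 4624, 10026 and 4797 CPM in the LPS libraries, with a log2 fold change of 2.86 (SE 0.49, adjusted p = 0.00063). Within vehicle, both were higher in replicates 2 and 3 than in 1 and 4, and within LPS replicate 3 stood about 2 times above the other 3 libraries. Ifit3 rose by 2.54 (SE 0.39, adjusted p = 0.00033) and Ifit3b by 2.81 (SE 0.42, adjusted p = 0.00026) on the log2 scale. Ifit3 shares 51.2% of its 50-base exonic windows with Ifit3b, and since only uniquely aligned reads were counted their separate levels are uncertain.

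The ISG15 system also rose in full. Isg15 is a ubiquitin-like protein that is joined to host and viral proteins and is also secreted. Isg15 (chr4:156199424-156200818, minus strand) stood at 80.9, 168, 259.8 and 85.8 CPM in the vehicle libraries and 1394, 1815, 1948 and 1899 CPM in the LPS libraries, with a log2 fold change of 3.57 (SE 0.39, adjusted p = 3.4e-05). Its LPS libraries differed by 1.40 times at most, and the lowest was 5.37 times the highest vehicle library. Usp18 (chr6:121245906-121270917, plus strand), the protease that removes ISG15 and also binds Ifnar2 to damp the receptor, stood at 45.2, 83.5, 102 and 45.1 CPM in the vehicle libraries and 1128, 1221, 1802 and 1312 CPM in the LPS libraries, with a log2 fold change of 4.31 (SE 0.33, adjusted p = 3.8e-06). Herc6, the main ligase that attaches ISG15 in mice, rose by 2.74 (SE 0.29, adjusted p = 3.2e-05) and Trim25, a ubiquitin ligase that acts on the sensor RIG-I, by 1.40 (SE 0.15, adjusted p = 2.7e-05). Trim25 had the smallest spread of all members within vehicle, at 258 to 339 CPM.

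All 6 members of the OAS family were called higher, over a wide range. OAS enzymes make 2′-5′-linked oligoadenylates on double-stranded RNA, which switch on the ribonuclease RNase L, whereas the OAS-like proteins Oasl1 and Oasl2 act in other ways. Oasl1 (chr5:114923240-114937915, plus strand), described as an inhibitor of Irf7 translation, stood at 11.8, 32.5, 60.6 and 15.2 CPM in the vehicle libraries and 676, 872, 1198 and 916 CPM in the LPS libraries, with a log2 fold change of 4.93 (SE 0.53, adjusted p = 3.5e-05). Its lowest LPS library was 11.1 times its highest vehicle library, although the vehicle libraries themselves differed by 5.15 times. Oas1g (chr5:120876142-120887613, minus strand) was at 19.8, 32.9, 34.5 and 20.5 CPM in the vehicle libraries and 146, 137, 152 and 138 CPM in the LPS libraries, with a log2 fold change of 2.41 (SE 0.20, adjusted p = 5.7e-06). Oas3 (chr5:120753098-120777661, minus strand), which has the strongest affinity for long double-stranded RNA, was at 123, 281, 408 and 148 CPM in the vehicle libraries and 1158, 1218, 1125 and 1336 CPM in the LPS libraries, with a log2 fold change of 2.33 (SE 0.35, adjusted p = 0.00029). For Oas3, vehicle libraries differed by more than 3 times while the LPS libraries differed by less than 1.2 times. Oas1a (1.96) and Oas2 (1.62) rose less on the log2 scale. Oas1a shares 57.6% and Oas1g 45.7% of their 50-base windows with other genes. Since only uniquely aligned reads were counted, their separate levels are uncertain.

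Oasl2 had the smallest change that was called, and it was singled out after its values were seen. It stood at 308, 448, 543 and 320.5 CPM in the vehicle libraries and 602, 639, 986 and 538 CPM in the LPS libraries, with a log2 fold change of 0.77 (SE 0.24, adjusted p = 0.019). LPS replicate 4 lay just below vehicle replicate 3, so the groups overlapped. Under scaling by library totals alone the log2 fold change of Oasl2 was 0.08 with an adjusted p of 0.73 (edgeR), which ends the call.

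All 4 RNA sensors rose. Ifih1 (MDA5) and Ddx58 (RIG-I) bind long and 5′-triphosphate RNA and signal through Mavs, Dhx58 (LGP2) tunes both, and Ddx60 is a related helicase. Ifih1 (chr2:62595798-62646255, minus strand) stood at 133, 208, 264 and 136 CPM in the vehicle libraries and 887, 904, 1167 and 872 CPM in the LPS libraries, with a log2 fold change of 2.37 (SE 0.24, adjusted p = 2.4e-05). Ddx60 (chr8:61928087-62038244, plus strand) stood at 71.9, 114, 155 and 62.7 CPM in the vehicle libraries and 346, 404, 778 and 368 CPM in the LPS libraries, with a log2 fold change of 2.23 (SE 0.36, adjusted p = 0.0004). The LPS libraries of Ifih1 were close except for replicate 3, which also stood apart for Ddx60. Ddx58 rose by 1.87 (SE 0.23, adjusted p = 7.7e-05) and Dhx58 by 1.34 (SE 0.23, adjusted p = 0.00058) on the log2 scale. Dhx58 differed from the other sensors in LPS replicate 3, where it was lowest of the 4 libraries at 0.896 times the mean of the other 3, against 2.09 times for Ddx60.

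Each of the 6 genes for proteins that restrict viruses at membranes or in the cytoplasm was higher. Mx1 and Mx2 encode dynamin-like GTPases that trap viral nucleocapsids. C57BL/6 mice are known to carry defective Mx genes, so transcript levels say nothing of working protein, and the annotation lists Mx2 as a polymorphic pseudogene. Mx1 (chr16:97447035-97462907, minus strand) stood at 50.5, 147, 158 and 64.0 CPM in the vehicle libraries and 749, 1283, 2358 and 1213 CPM in the LPS libraries, with a log2 fold change of 3.74 (SE 0.48, adjusted p = 0.0001). Mx2 (chr16:97535308-97560900, plus strand) stood at 18.3, 35.9, 36.3 and 20.3 CPM in the vehicle libraries and 175, 255, 485 and 242 CPM in the LPS libraries, with a log2 fold change of 3.38 (SE 0.37, adjusted p = 3.5e-05). In both genes LPS replicate 1 was lowest and replicate 3 highest. Ifitm3 (chr7:141009586-141010770, minus strand), which blocks the fusion of viruses in endosomes, stood at 308, 326, 537 and 245 CPM in the vehicle libraries and 1203, 1158, 1315 and 1154 CPM in the LPS libraries, with a log2 fold change of 1.77 (SE 0.23, adjusted p = 0.00011). Its LPS libraries lay within 1.14 times of each other. Bst2 (tetherin, which holds budding virions at the cell surface) rose by 1.94 (SE 0.25, adjusted p = 9.8e-05), Samd9l by 1.91 (SE 0.27, adjusted p = 0.0002) and Rtp4 by 1.50 (SE 0.27, adjusted p = 0.00086) on the log2 scale. Bst2 is singled out after its values were seen because LPS replicate 3 was its lowest LPS library, at 1045 CPM against 1205 to 1385 CPM in the other 3.

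The PARP and DTX3L group changed least, and its 4 genes were all higher. Parp9 and Dtx3l form a complex that joins ADP-ribosylation to ubiquitination, and Parp12 and Parp14 are mono-ADP-ribosyltransferases. Parp9, Dtx3l and Parp14 lie side by side on chromosome 16. Parp12 (chr6:39086410-39118349, minus strand) stood at 177, 262, 299 and 188 CPM in the vehicle libraries and 731, 734, 1011 and 705 CPM in the LPS libraries, with a log2 fold change of 1.78 (SE 0.21, adjusted p = 5.2e-05). Dtx3l (chr16:35926511-35939151, minus strand) stood at 65.2, 97.0, 120.5 and 73.4 CPM in the vehicle libraries and 197, 209, 266 and 204 CPM in the LPS libraries, with a log2 fold change of 1.30 (SE 0.20, adjusted p = 0.00031). Parp14 (chr16:35832874-35871544, minus strand) stood at 683, 1093, 1209 and 733 CPM in the vehicle libraries and 1804, 1875, 2908 and 1846 CPM in the LPS libraries, with a log2 fold change of 1.18 (SE 0.24, adjusted p = 0.0019). In all 3 the libraries of the groups did not overlap, and LPS replicate 3 was the highest. Parp9 rose by 1.11 (SE 0.19, adjusted p = 0.00063) on the log2 scale, and its exons overlap those of Dtx3l on the opposite strand over 9.4% of their length. That stretch is 8% of the exonic length of Dtx3l. The sources used here do not state whether counting used strand, so reads from that stretch cannot be assigned.

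Of the 10 nuclear and other members 9 rose, and Ifi27l2a did not pass the test. Phf11b (chr14:59320964-59341351, minus strand), a PHD-finger gene, stood at 19.7, 42.8, 61.3 and 22.2 CPM in the vehicle libraries and 344, 427, 714 and 448 CPM in the LPS libraries, with a log2 fold change of 3.73 (SE 0.41, adjusted p = 3.7e-05), and it shares 47.0% of its windows with other genes. Ifi44 (chr3:151730922-151749960, minus strand) had the lowest vehicle level of the members per kilobase of exon, 2.06 CPM per kb on average, and stood at 4.62, 11.3, 28.0 and 6.64 CPM in the vehicle libraries and 98.4, 139, 234 and 139 CPM in the LPS libraries, with a log2 fold change of 3.59 (SE 0.55, adjusted p = 0.00032). Its vehicle libraries differed by 6.06 times, the widest of all members, yet the lowest LPS library was 3.51 times the highest of them. Ifi204 (chr1:173747293-173766943, minus strand), a DNA-binding PYHIN protein, stood at 264, 504, 545 and 336 CPM in the vehicle libraries and 1358, 1339, 2107 and 1327 CPM in the LPS libraries, with a log2 fold change of 1.89 (SE 0.26, adjusted p = 0.00018). The others in this group were higher by log2 fold changes of 3.11 (Phf11d), 2.44 (Xaf1, a cofactor of apoptosis), 1.90 (Ifi35), 1.82 and 1.67 (Sp100 and Pml, scaffolds of nuclear bodies) and 1.41 (Trim30a), with adjusted p-values (edgeR) from 1.3e-05 to 0.00042. Exons of Ifi35 overlap those of Gm11626 on the opposite strand over 16.8% of their length, and reads from that stretch cannot be assigned.

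Ifi27l2a (chr12:103442167-103443680, minus strand), a small mitochondrial membrane protein of the ISG12 family, stood at 74.7, 164, 225 and 113 CPM in the vehicle libraries and 77.1, 194, 127 and 171 CPM in the LPS libraries. The means were 144 ± 65.2 in vehicle and 142 ± 51.5 in LPS (SD, n = 4), with a log2 fold change of -0.02 (SE 0.36, adjusted p = 0.97). The groups overlapped, and the spread within each, of 3.02 times in vehicle and 2.52 times in LPS, was larger than the difference between the means. In vehicle its libraries kept the order of the other members, with replicate 3 highest and replicate 1 lowest, and in LPS they did not, with replicate 2 highest. It had at least 1289 raw counts in each library. The change between same-numbered libraries ran from -0.82 to 0.59 on the log2 scale. A p above the threshold does not show that its level was the same in both groups.

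The members moved together between libraries of the same group. Vehicle replicate 3 was the highest of the 4 vehicle libraries for all 42 members, a place it held for 30.0% of tested genes, and replicate 1 was lowest for 34 of them (28.2% of tested genes) and replicate 4 for the other 8. The median deviation of the members from their vehicle mean was 0.57 on the log2 scale in replicate 3, 0.27 in replicate 2, -0.38 in replicate 4 and -0.44 in replicate 1. The highest vehicle library exceeded the lowest by a median of 2.06 times over the members, against 1.22 times over the 8382 tested genes whose mean level was 3 or more in log2 CPM. In LPS the same ratio was 1.62 times for the members and 1.43 times for those genes. These counts are descriptions, since the members were measured in the same libraries. Vehicle replicate 3 had also the lowest sums of astrocyte (20.01 CPM, others 37.6 to 46.9), oligodendrocyte precursor (14.8, others 38.0 to 50.7) and neuron markers (6.47, others 15.8 to 19.0) and the highest sums of microglial (12787, others 10568 to 11036) and oligodendrocyte markers (205, others 150 to 184), and the part of this in the member levels was not tested.

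LPS replicate 3 was the highest LPS library for 36 of the 42 members, and for 40.8% of tested genes. It split the members. In 7 of them it was at least 2 times the mean of the other 3: Cmpk2 (2.62), Rsad2 (2.52), Ifit2 (2.38), Ifit1 (2.18), Mx1 (2.18), Mx2 (2.16) and Ddx60 (2.09). Such a ratio occurred in 2.21% of these 8382 genes, whose median ratio was 1.10. In 24 members the ratio was between 1.2 and 2, and in 11 it was under 1.2. It was below 1 in 5 of these, Ifi35 (0.953), Oas3 (0.909), Dhx58 (0.896), Ifi27l2a (0.864) and Bst2 (0.807). These genes were named by their ratio after the values were seen. Without both libraries numbered 3, a choice made after seeing the data, 41 members were still called higher, with a median log2 fold change of 2.31. Of all 14141 genes tested in that fit, 4653 were higher. In that setting 41 members had groups that did not overlap. Fewer libraries per group make this easier, and the share of all genes was not counted there. Leaving out LPS replicate 3 alone gave 41 calls and a median of 1.97, with 4299 of 14329 tested genes higher. This library also held the lowest sums of oligodendrocyte precursor markers (0.466 CPM, others 5.34 to 7.24), oligodendrocyte markers (188 CPM, others 212 to 237), neuron markers (2.43 CPM, others 3.76 to 9.34) and endothelial markers (163 CPM, others 235 to 254). The sums of microglial markers (3327 CPM, others 3339 to 3581) and plasmacytoid dendritic cell markers (1291 CPM, others 1398 to 1577) were lowest there too. The latter sum includes the member Bst2 (1045 CPM, others 1205 to 1385), whereas Tcf4 was highest there (246 CPM, others 192 to 203). Of the endothelial markers, Flt1 was lowest there (86.3 CPM, others 187 to 197) and Pecam1 highest (68.7 CPM, others 31.7 to 58.3). Cdh5 lay between the others (7.60 CPM, others 6.34 to 8.77). The part of these markers in the member levels was not tested.

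**Figure D4:**
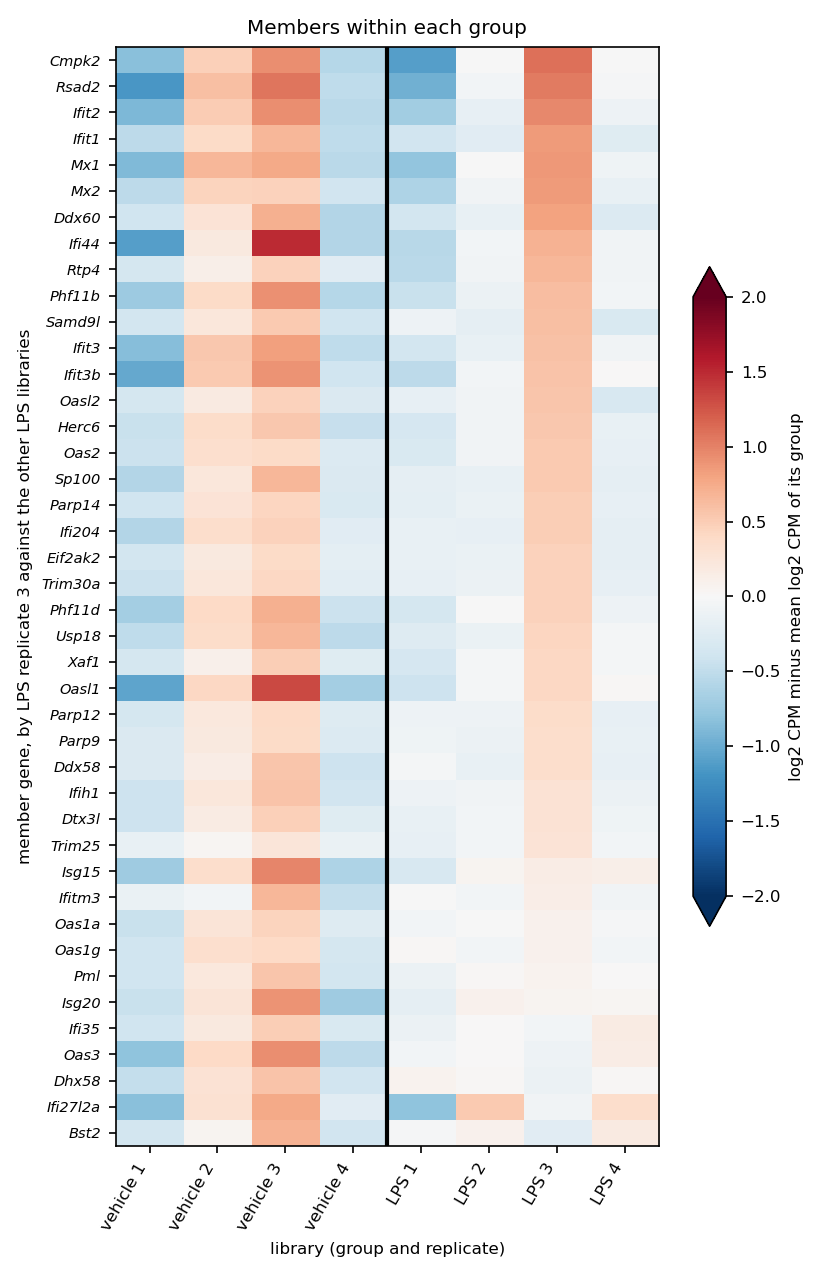
Log2 CPM of each member in each library minus the mean of its group (red above, blue below), with members ordered by the ratio of LPS replicate 3 to the other LPS libraries. Vehicle replicate 3 is highest for all 42 members, whereas LPS replicate 3 ranges from 2.62 times the mean of the other 3 (Cmpk2) to 0.81 times (Bst2).

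Between same-numbered libraries, the change was above 0 for all 42 members in replicates 1, 2 and 4 and for 41 in replicate 3, where Ifi27l2a was the exception. The median log2 ratio over the members was 2.38, 1.90, 1.97 and 2.55 in replicates 1 to 4, against -0.13, -0.10, -0.08 and -0.11 over all tested genes. Rsad2 had the largest ratio in each of the 4, from 5.22 to 6.36. Oas3 ranged from 1.46 in replicate 3 to 3.24 in replicate 1, whereas Trim25 ranged only from 1.31 to 1.48.

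A list of 31 other genes of the interferon pathway was compared in the same fit. Of the 30 that were tested, 20 were higher and 3 were lower (30.3 and 33.8% of all tested genes), and 7 did not pass. Their median log2 fold change was 1.04. Ifnb1, the gene of interferon beta, had 0 to 15 counts per library at 24 h and was not tested. Its count of 0 in LPS replicate 1 allows up to 3 counts in that library's 20071921, and this limit covers counting error only. Its levels were 0.210, 0.208, 0.222 and 0.0710 CPM in the vehicle libraries and 0, 0.490, 0.700 and 0.162 CPM in the LPS libraries, which overlapped.

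Among the receptors, Ifnar1 stood at 259.6, 210.3, 236 and 225 CPM in the vehicle libraries and 271, 297, 355 and 261 CPM in the LPS libraries, with a log2 fold change of 0.35 (SE 0.13, adjusted p = 0.038). Its call does not hold under other settings: with library totals alone the log2 fold change was -0.34 (adjusted p = 0.011, edgeR), and with upper quartile scaling 0.19 (adjusted p = 0.16, edgeR). Leaving out LPS replicate 2 or 3 or vehicle replicate 2 or 4 also ended it, with adjusted p-values from 0.054 to 0.072 (edgeR). Ifnar2 stood at 101, 103, 115 and 104 CPM in the vehicle libraries and 175, 174, 189 and 159.7 CPM in the LPS libraries, with a log2 fold change of 0.72 (SE 0.10, adjusted p = 0.00012), and 0.04 (adjusted p = 0.66, edgeR) with library totals alone. Ifngr1, a chain of the interferon gamma receptor, had the largest fall, at 228, 196, 223 and 219 CPM in the vehicle libraries and 69.9, 91.1, 69.0 and 75.1 CPM in the LPS libraries, with a log2 fold change of -1.50 (SE 0.12, adjusted p = 4.9e-06). The log2 fold changes of Ifnar1, Ifnar2 and the gamma chain Ifngr2 (0.70) were smaller than those of the 41 members called higher.

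Stat2 and Irf9, parts of ISGF3, rose after LPS as the members did. Stat2 stood at 282, 465, 530.4 and 287 CPM in the vehicle libraries and 1264, 1559, 1839 and 1533 CPM in the LPS libraries, with a log2 fold change of 1.99 (SE 0.24, adjusted p = 6.7e-05). Irf9 stood at 75.2, 85.5, 95.8 and 75.8 CPM in the vehicle libraries and 154, 192, 224 and 188 CPM in the LPS libraries, with a log2 fold change of 1.19 (SE 0.14, adjusted p = 5.1e-05). Both were highest in replicate 3 of the vehicle group and in replicate 3 of the LPS group, as most members were. Of the 30 tested pathway genes, 19 were highest in vehicle replicate 3 and 20 in LPS replicate 3. These libraries were highest for 30.0 and 40.8% of all tested genes. Irf7, a factor that amplifies interferon transcription, stood at 208, 403, 627 and 203 CPM in the vehicle libraries and 4116, 4409, 3802 and 4421 CPM in the LPS libraries, with a log2 fold change of 3.54 (SE 0.37, adjusted p = 3e-05). Irf7 was also highest in vehicle replicate 3 but was lowest in LPS replicate 3, as Bst2, Dhx58 and Oas3 were.

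The 3 largest rises on the pathway list were Socs3, Socs1 and Irf7. The feedback inhibitor Socs3 stood at 17.5, 8.10, 16.9 and 7.49 CPM in the vehicle libraries and 1854, 1748, 1501 and 1889 CPM in the LPS libraries, with a log2 fold change of 7.13 (SE 0.36, adjusted p = 4e-07). Socs1 stood at 1.37, 1.25, 3.17 and 1.28 CPM in the vehicle libraries and 38.8, 18.4, 22.5 and 18.5 CPM in the LPS libraries, with a log2 fold change of 3.79 (SE 0.38, adjusted p = 2.3e-05). Both inhibitors bind receptor or JAK kinase domains and end cytokine signals, and their LPS libraries lay far above vehicle. The 3 that were lower were Ifngr1, Tlr4 and Mavs. Tlr4, the LPS receptor, stood at 188, 206, 194 and 178 CPM in the vehicle libraries and 55.5, 74.4, 149 and 61.7 CPM in the LPS libraries, with a log2 fold change of -1.17 (SE 0.28, adjusted p = 0.0049). Mavs, the adaptor of the RNA sensors on mitochondria, stood at 43.1, 43.1, 47.2 and 45.6 CPM in the vehicle libraries and 19.2, 29.2, 30.4 and 25.8 CPM in the LPS libraries, with a log2 fold change of -0.77 (SE 0.14, adjusted p = 0.00091). With library totals alone 15 of the pathway genes were higher and 11 lower, beside 1988 higher and 8457 lower of all 13847 tested genes. Without LPS replicate 3 the number of pathway genes lower was 5, with Irf5 and Pias1 added, beside 5015 of 14329 tested genes.

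**Figure D5:**
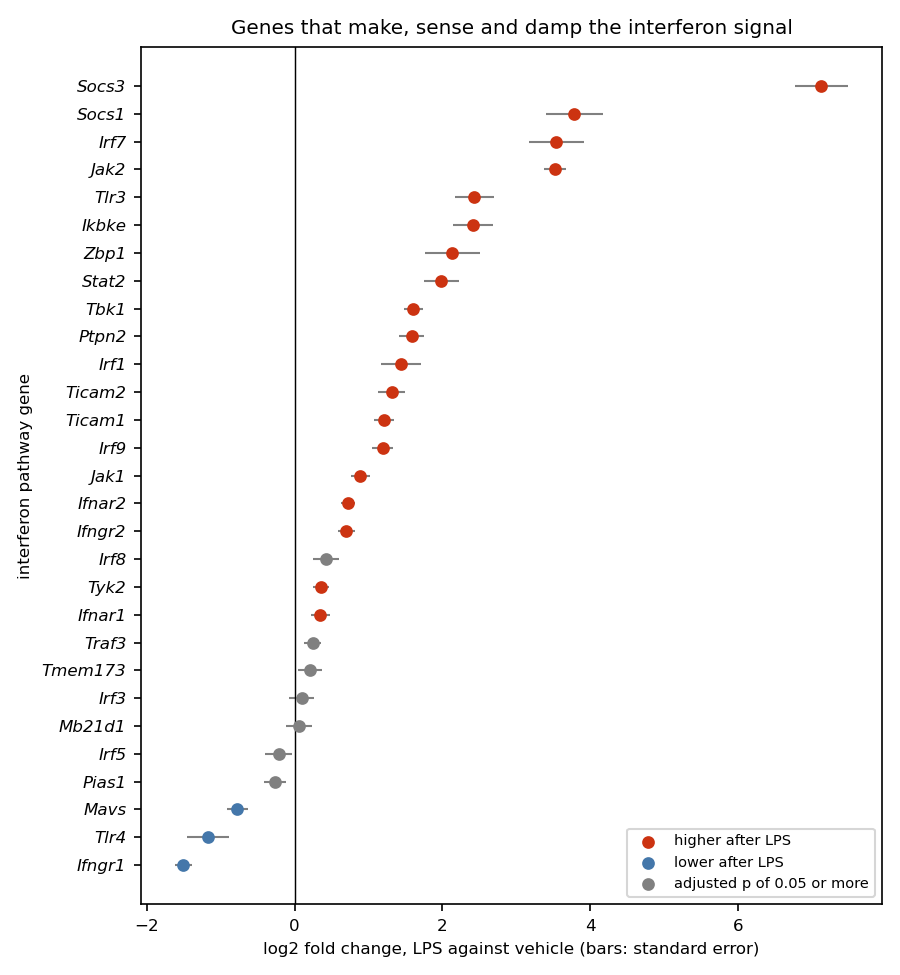
Log2 fold change (bars show the standard error) of the tested interferon pathway genes except 1 that is not reported singly, LPS against vehicle, in red where higher, blue where lower and grey where the adjusted p was 0.05 or more. Socs3 has the largest rise at 7.13, and Ifngr1 has the largest fall at -1.50.

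The members can be set beside 2 other interferon-induced families. Of 18 interferon-inducible GTPases of the GBP and IRG families, 15 were tested, 14 were higher and 0 lower (30.3 and 33.8% of all tested genes), with a median log2 fold change of 3.75. Of 7 Schlafen genes, 6 were higher and 1 lower, beside the same shares of all tested genes, with a median of 1.83. Whether the members differ from either family was not tested.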

How the data were processed

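RNA for 8 microglial libraries was sequenced in single-end reads of 50 bases. The authors filtered and counted reads with HTSeqGenie, aligned them to GRCm38 with GSNAP (also named in the submitters' processing notes), kept uniquely aligned reads and deposited raw counts per Ensembl gene, with no normalization. The labels name a stranded TruSeq kit and a NovaSeq and the methods another kit and sequencer. Gene symbols, positions and exon lengths came from GENCODE vM21 and promoter windows from RefSeq (GRCm38.p6). Promoter windows of Dhx58, Oas2, Usp18, Mx1, Mx2, Rtp4, Parp9, Parp14, Ifi204 and Ifi27l2a were not used here.

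LPS and vehicle were compared by the two-sided quasi-likelihood F test of edgeR 4.0.16 (TMM; filterByExpr with minimum count 10 and total 15) in R 4.3.3, with Benjamini-Hochberg adjustment over all 13847 tested genes and a threshold of 0.05. Standard errors were taken as the absolute log2 fold change divided by the square root of F. Python 3.11.15, numpy 2.4.6, pandas 2.3.3 and matplotlib 3.10.9 made the tables and plots. The library totals of 20071921 to 30604447 counts set the precision of low counts.

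The members, lists and tests were chosen with earlier results of these data known. Values per library are given for the 2 members with the largest change and the member with the highest mean in each of 8 role groups, for members that fell or did not pass, and for Ifnb1, Ifnar1, Ifnar2, Stat2, Irf9, Irf7 and the 3 largest rises and falls of the pathway list. A gene of the pathway list counts in its totals but is not reported singly here. Paralogs were checked with exonic windows of 50 bases. Log2 ratios of same-numbered libraries had 0.01 CPM added to both values. The paper does not say whether equal replicate numbers mark a shared culture. The deviations of same-numbered libraries from their group means correlated with 0.361, 0.183, 0.183 and 0.130 over 8382 genes, all above 0.1. The reported fit has no replicate block, and a fit that takes the numbers as pairs was run as an alternative. Alternatives were DESeq2 1.42.0, no filter, a filter of 10 counts in each library, scaling by the upper quartile, library totals alone, a replicate block, an adjusted p of 0.01, a log2 change of at least 1, and leaving out libraries.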

Additional observations from a re-analysis of the deposited data

Results flagged for a closer look

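In each group of 4 libraries, the gap between the highest or lowest library and the next was set against the whole range on the log2 scale. Of 84 such groups (42 members in vehicle and in LPS), 9 had a gap above Dixon's 95% critical value for 4 samples, where chance gives about 1 in 20 groups, and the members are not independent of each other. The share of all tested genes with such a gap was not counted. In all 9 flagged groups the library was LPS replicate 3, and it was the highest. This library was the highest LPS library for 40.8% of tested genes and the lowest for 33.0%. The levels there were 1167 CPM for Ifih1, 4843 CPM for Ifit1 and 585 CPM for Eif2ak2, with the other LPS libraries at 872 to 904, 2056 to 2312 and 376 to 385 CPM. In the PARP group they were 516 CPM for Parp9, 1011 CPM for Parp12 and 2908 CPM for Parp14, and the other libraries reached at most 379, 734 and 1875 CPM. Among the nuclear members they were 925 CPM for Sp100, 2107 CPM for Ifi204 and 1481 CPM for Trim30a, and the other libraries reached at most 578, 1358 and 987 CPM. All 9 members were also called higher by edgeR without this library.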

How the results depend on the processing

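The 41 members called higher stayed between 40 and 41, and the number called lower stayed at 0, under DESeq2, both filters, both other scalings, the stricter thresholds and each left-out library. Among the alternative fits at the main threshold, 1988 to 4827 of all tested genes were higher and 3865 to 8457 lower. The number of genes tested ran from 11203 to 25424. With a replicate block, pairing same-numbered libraries, 41 members were higher, their median was 2.12, and 20 pathway genes were higher and 3 lower, so the block changed none of these counts. Of all 13847 tested genes the block fit called 4110 higher and 4934 lower. With library totals alone the members' median log2 fold change was 1.41 and 11 pathway genes were lower, as this scaling shifts the median of all genes by -0.68 (upper quartile scaling shifts it by -0.16). That fit called 8457 of all 13847 tested genes lower. Leaving out 1 library at a time gave member medians from 1.97 to 2.43, the highest without vehicle replicate 3, and 3 to 5 pathway genes lower. Those fits called 4003 to 5015 of all tested genes lower. Oasl2 lost its call with library totals alone, at an adjusted p of 0.01 and at a log2 change of at least 1, and no other member called higher lost its call under these alternatives. The count of promoters with a match was 16, 14 with a following C and 12 before the start site. Among the members and the pathway genes, Ifnb1 alone had too few counts to test.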

Other observations

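Elements of another kind were also looked for in the same windows. A GAS-type match (TTCNNNGAA on either strand, a form known from interferon gamma responses) was found in 7 of the 32 members (21.9%) with a window, against 9.55% of 27025 genes, and in 6 of 11 GBP and IRG genes (54.5%). Of the members, Ifit2, Oas1a, Isg20, Eif2ak2, Bst2, Ifitm3 and Ifi35 had one, and Ifit2, Isg20 and Ifi35 had it without an ISRE-type match. ISRE-type matches were present in 10 of the 11 GBP and IRG genes, in 3 of 7 Schlafen genes and in 2 of 25 pathway genes with a window. These shares are descriptions of letters in a window, with no test.

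The Schlafen genes, some of which are linked to virus restriction and the growth of immune cells, held the widest range of the interferon-induced families compared. Slfn4 stood at 1.44, 1.42, 3.49 and 1.07 CPM in the vehicle libraries and 1418, 1273, 1585 and 939.8 CPM in the LPS libraries, with a log2 fold change of 9.45 (SE 0.45, adjusted p = 3e-07) by edgeR. Slfn1 stood at 3.08, 4.43, 17.0 and 2.13 CPM in the vehicle libraries and 696, 712, 929 and 648 CPM in the LPS libraries, with a log2 fold change of 6.80 (SE 0.69, adjusted p = 2.3e-05) by edgeR. Slfn3 was the only one lower, at 4.69, 6.99, 16.7 and 5.75 CPM in the vehicle libraries and 3.35, 3.76, 5.27 and 3.62 CPM in the LPS libraries, with a log2 fold change of -1.09 (SE 0.39, adjusted p = 0.033) by edgeR, and its groups overlapped in their values. These 3 genes were named after their values were seen.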
